A study of Mus musculus with 3 samples.

Results

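The Toll-like receptor (TLR) genes *Tlr1* to *Tlr9* and *Cd14* were described in endothelial cells (ECs) of the adult mouse lung. The members were picked by name, as the rows of the deposited expression table that carry these 10 symbols, and all 10 of them were found among its 24346 genes. The data are 3 bulk RNA-seq libraries of a single group, called S38, S44 and S52, from the lungs of wild type C57BL/6J mice that received no treatment beyond an injected antibody to VE-cadherin. The study's methods give these mice as males aged 6 to 8 weeks, and the cells as sorted for CD31 with CD45 and podoplanin used to exclude leukocytes and lymphatic cells. Neither the labels nor the methods state whether each library came from a separate animal or from pooled mice, so the SDs below measure the spread between libraries, which may be technical. There is no second condition, and no difference between conditions was tested. Levels are the deposited FPKM values, in which fragment numbers are divided by gene length and library size and can be compared between genes.

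Toll-like receptors recognise microbial and damage-associated molecules. TLR1, TLR2, TLR4, TLR5 and TLR6 act mainly at the cell surface, where TLR4 with its partner MD-2 senses lipopolysaccharide, TLR2 pairs with TLR1 or TLR6 to sense lipopeptides, and TLR5 senses flagellin. TLR3, TLR7, TLR8 and TLR9 sense nucleic acids in endosomes. CD14 is a co-receptor without a signalling domain that hands lipopolysaccharide to TLR4 and MD-2. Most receptors of the family signal through the adaptor MyD88 to NF-kappaB, TLR3 signals through the adaptor TRIF instead, and TLR4 uses both. Myeloid cells are the best known site of expression, and endothelium is known to respond to lipopolysaccharide.

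The 10 genes fell into a detected and a near-silent set. *Tlr3*, *Cd14*, *Tlr2* and *Tlr4* had a mean of at least 1 FPKM, and *Tlr6*, *Tlr8*, *Tlr7*, *Tlr5*, *Tlr9* and *Tlr1* did not, with no gene between 0.342 and 4.07 FPKM in any library. Thus 4 of the 10 (40%) were detected, against 48.3% of all genes in the table. The median of the 10 means was 0.145 FPKM, and that of all genes was 0.784 FPKM. At 10 FPKM or above, 2 of the 10 remained, *Tlr3* and *Cd14*, against 25.7% of all genes. The same number, 4, was detected when any library was left out.

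**Figure D1:**
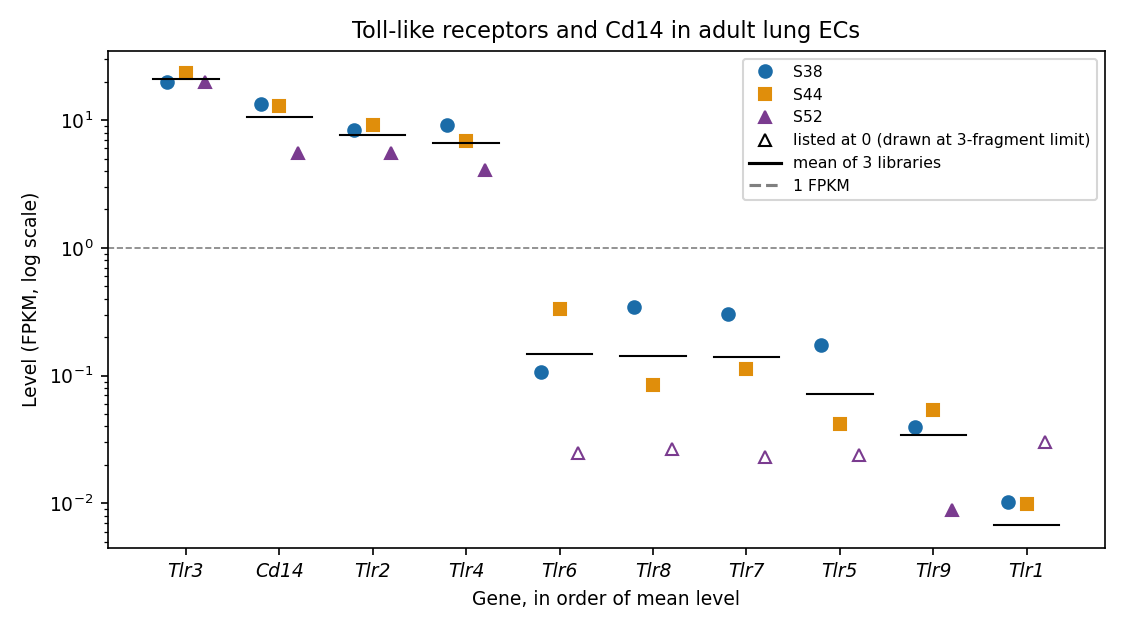
Level in FPKM on a log axis of each gene in the libraries S38 (circles), S44 (squares) and S52 (triangles), with the mean as a line. The detected genes, from *Tlr3* at a mean of 21.02 to *Tlr4* at 6.67 FPKM, stand above the dashed line of 1 FPKM in every library, and open triangles mark the 5 genes listed at 0 in S52, drawn at the value of 3 fragments.

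*Tlr3*, the endosomal receptor for double-stranded RNA, was the highest of the 10. It was at 19.9 (S38), 23.2 (S44) and 19.9 FPKM (S52), or 21.02 ± 1.93 FPKM (SD, n = 3 libraries). The libraries differed by at most 1.17-fold, less than the median of 1.40-fold over all detected genes. Its mean ranked 3771 and lay above 84.5% of the genes in the table. *Tlr3* lies on the minus strand of chromosome 8 of GRCm38 (mm10), between 45395665 and 45411080, with 7 exons in the longest of its basic transcripts (GENCODE M21). Of its 4488 exonic bases, 117 overlap exons of *Gm45542* on the other strand, a gene without a row in the table, and reads of the pair cannot be told apart there because the kit did not mark strand. The genes nearest to it in pattern over the 3 libraries, on log2(FPKM + 1) centred per gene, were *Ssu72*, *Trmt2a* and *Stat5b*, at distances of 0.00529, 0.00535 and 0.00827. With only 3 libraries, 407 of 6268 genes at 10 FPKM or above lay within 0.1, so the likeness is a description of an even level and little more.

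The lipopolysaccharide receptor genes came next and were less even. *Cd14* was at 13.4 (S38), 13.0 (S44) and 5.57 FPKM (S52), or 10.7 ± 4.41 FPKM (SD, n = 3). *Tlr4* was at 9.10, 6.84 and 4.07 FPKM in the same order, or 6.67 ± 2.52 FPKM (SD, n = 3). For both genes S52 was the lowest library, and *Cd14* was nearly level between S38 and S44. *Ly96*, which encodes MD-2, was at 17.1 (S38), 11.9 (S44) and 5.69 FPKM (S52). *Cd14* was between 0.786 and 1.09 times the FPKM of *Ly96* in every library, and *Ly96* between 1.40 and 1.88 times that of *Tlr4*. *Lbp*, whose secreted product delivers lipopolysaccharide to CD14, did not share this order and was at 29.4, 40.5 and 37.9 FPKM. *Tlr4* spans 66827584 to 66930284 of chromosome 4 on the plus strand, and *Cd14* on the minus strand of chromosome 18.

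*Tlr2*, the common partner in lipopeptide sensing, was at 8.41 (S38), 9.11 (S44) and 5.53 FPKM (S52), or 7.68 ± 1.89 FPKM (SD, n = 3). It was again lowest in S52. It lies on the minus strand of chromosome 3, from 83836272 to 83841767. Its partners were near 0. *Tlr6* was at 0.108 FPKM in S38 and 0.335 FPKM in S44 and was listed at 0 in S52, and *Tlr1* was at 0.0103 and 0.00998 FPKM and was listed at 0 in S52. In S38 and S44, *Tlr2* was thus 78.1 and 27.2 times the FPKM of *Tlr6*. *Tlr1* and *Tlr6* are neighbours on chromosome 5, 18467 bases apart, and 448 of the 3070 windows of 51 bases (the read length) in *Tlr1* also occur in *Tlr6*, so the split of reads between this pair is uncertain. *Cd36*, a scavenger receptor that can hand ligands to TLR2 and is known for fatty acid uptake in capillaries, was at 1505, 1517 and 1507 FPKM.

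The upstream sequences of *Tlr3* and *Tlr2*, the detected receptors for which the RefSeq table used here (GRCm38.p6) holds a window, are shown because NF-kappaB is the main transcription factor downstream of the family. Each run is the 250 bases before the RefSeq start, 5′ to 3′ on the strand of the gene, with matches to the NF-kappaB consensus in capitals. The RefSeq starts differ from the 5′ ends in GENCODE M21, which are at 45411080 for *Tlr3* and 83841767 for *Tlr2*. By GENCODE the *Tlr3* run therefore lies wholly inside the gene and the *Tlr2* run partly inside it.
*Tlr3*, chr8:45410381-45410630, minus strand: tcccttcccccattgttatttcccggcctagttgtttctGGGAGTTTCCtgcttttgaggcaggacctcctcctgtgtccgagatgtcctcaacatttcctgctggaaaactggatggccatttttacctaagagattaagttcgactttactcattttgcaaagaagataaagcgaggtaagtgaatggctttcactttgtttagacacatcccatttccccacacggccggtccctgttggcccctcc
*Tlr2*, chr3:83841609-83841858, minus strand: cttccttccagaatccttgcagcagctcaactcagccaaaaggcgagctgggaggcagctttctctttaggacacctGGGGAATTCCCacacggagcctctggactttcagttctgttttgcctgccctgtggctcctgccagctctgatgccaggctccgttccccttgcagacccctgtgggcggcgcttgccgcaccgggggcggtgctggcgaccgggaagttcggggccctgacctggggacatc

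Windows were available for 7 of the 10 genes (not *Tlr4*, *Tlr7* and *Cd14*). The NF-kappaB consensus, searched on both strands, matched in *Tlr3* and *Tlr2* and in none of the windows of *Tlr1*, *Tlr5*, *Tlr6*, *Tlr8* and *Tlr9*, and it matched in 7.25% of all 32851 windows. In *Tlr3* the match runs from 211 to 202 bases before the RefSeq start, on the strand of the gene, and lies inside the gene by GENCODE. In *Tlr2* overlapping matches cover 173 to 163 bases before the RefSeq start, on both strands, and lie outside the gene by GENCODE. The other 4 patterns searched on both strands were GAAA followed after 2 bases by another GAAA, found in 1 window of *Tlr6* and in 2.98% of all windows, TGANTCA, found in *Tlr9* and in 6.75%, CCGGAA, found in 1 window of *Tlr1* and in 12.0%, and TATAAA, found in *Tlr8*, in the other window of *Tlr6* and in 12.4%. These matches are letters in a window and not measured binding sites.

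Among the nucleic acid sensors, only *Tlr3* was detected. *Tlr7* and *Tlr8*, receptors for single-stranded RNA, were at 0.304 and 0.342 FPKM in S38 and at 0.112 and 0.0852 FPKM in S44, and both were listed at 0 in S52. They are neighbours on chromosome X, 40599 bases apart, and share no window of read length. *Tlr9*, the receptor for unmethylated CpG DNA, was at 0.0397 (S38), 0.0540 (S44) and 0.00887 FPKM (S52). *Tlr5* was at 0.173 FPKM in S38 and 0.0420 FPKM in S44 and was listed at 0 in S52.

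The low levels correspond to few fragments. Depth is not part of the table and was estimated from the step between low FPKM values, at 37500000 (S38), 38600000 (S44) and 35300000 fragments (S52). By this estimate the values of *Tlr9* stand for 4.97, 6.94 and 1.01 fragments, and those of *Tlr1* for 1.11 fragments in S38 and 1.11 in S44. *Tlr8*, the gene with the highest single value of the near-silent set, stood at 42.2 fragments in S38 and 10.8 in S44. For the 5 genes listed at 0 in S52, a count of 0 allows from 0.0232 FPKM (*Tlr7*) to 0.0305 FPKM (*Tlr1*), taken as 3 fragments and covering counting error only. *Tlr1* lay below its limit in S38 and S44 as well, so no difference between libraries was detectable for it at this depth. The detected genes rest on far more, from 276 fragments for *Cd14* in S52 to 3820 for *Tlr3* in S44.

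**Figure D2:**
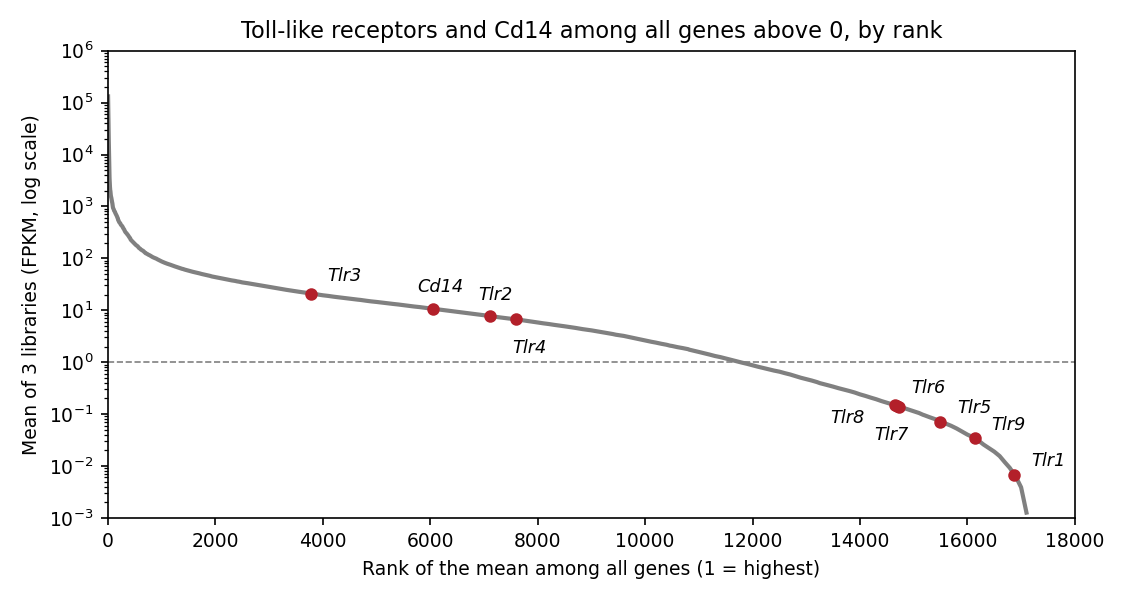
Mean level of 3 libraries in FPKM (log axis) against the rank of the mean among the 24346 genes, with genes above 0 as the grey curve and the 10 genes as red points. *Tlr3* at rank 3771, *Cd14* at 6059, *Tlr2* at 7121 and *Tlr4* at 7605 lie above the dashed line of 1 FPKM, and the other genes lie between ranks 14648 and 16876.

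The order of the means was tested between neighbours, over the libraries as pairs, on log2(FPKM + 1). The order and its neighbours were taken from the same 3 libraries, so the tests give it no independent support. With 3 libraries the exact paired permutation test (two-sided) cannot give a p below 0.25, so none of the 9 differences could pass a threshold of 0.05, and the ranges are the better guide. *Tlr3* was above *Cd14* by 0.999 ± 0.595 on the log2 scale (SD, n = 3; exact permutation p = 0.25, adjusted 0.562), and its lowest library, at 19.9 FPKM, stood above the highest of *Cd14*, at 13.4 FPKM. *Cd14* was above *Tlr2* by 0.36 ± 0.32 (exact permutation p = 0.25, adjusted 0.562), with overlapping ranges and near-equal values in S52. *Tlr2* and *Tlr4* differed by 0.21 ± 0.27 (exact permutation p = 0.5, adjusted 0.75), and *Tlr4* was the higher in S38. *Tlr4* stood above *Tlr6* by 2.69 ± 0.44 (exact permutation p = 0.25, adjusted 0.562), without overlap. Within the near-silent set all 5 neighbouring pairs overlapped, with exact permutation p from 0.25 to 1 (adjusted 0.562 to 1). *Tlr3* over *Cd14* and *Tlr4* over *Tlr6* are therefore the only steps in the order whose libraries did not overlap.

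Of the 4 detected genes, 2 (*Cd14*, 2.41-fold, and *Tlr4*, 2.23-fold) differed by over 2-fold between their highest and lowest library, as did 20.1% of all detected genes. *Tlr2* differed by 1.65-fold. *Cd14*, *Tlr2* and *Tlr4* were lowest in S52, as were 46.3% of detected genes, and the order S38, S44, S52 from high to low was seen for *Cd14* and *Tlr4* and for 26.6% of detected genes. *Cd14* alone of the 4 fell under 50% of both other libraries in S52, which 8.04% of detected genes did. Without S52 no member was over 2-fold (5.06% of detected genes were), and without S38 *Cd14* alone was (13.5% of detected genes were). All 6 genes of the near-silent set were above 0 in S38 and S44, and 5 of them were listed at 0 in S52, as were 37.1% of the 3606 genes of the table below 1 FPKM and above 0 in those libraries.

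S52 also stood apart in the markers of other cell types, and in bulk RNA fewer cells of a type and less RNA per cell cannot be told apart. The 10 endothelial markers were all detected, with sums of 6442 (S38), 7063 (S44) and 6276 FPKM (S52). All 5 pan-leukocyte markers were lowest in S52, with sums of 115, 95.7 and 6.25 FPKM, and *Tyrobp*, an adaptor of myeloid and NK cell receptors, was listed at 0 there. The 9 macrophage markers (5 detected) summed to 79.8, 64.9 and 22.1 FPKM, with *Marco* and *Siglecf* listed at 0 in S52. The 5 monocyte markers (2 detected) summed to 7.61, 6.51 and 0.988 FPKM, with *Ccr2*, *Fcgr1* and *Cd300e* listed at 0 in S52. Of the 7 neutrophil markers 6 had a row (4 detected), with sums of 38.6, 50.1 and 5.63 FPKM and *Mmp9* listed at 0 in S52. Marker sums of B cells (4 of 4 detected) were 21.9, 15.5 and 7.10 FPKM. The 5 dendritic cell markers (1 detected, *Zbtb46*) summed to 21.5, 27.5 and 26.6 FPKM, with *Flt3* and *Itgax* listed at 0 in S52. T cell markers (0 of 4 detected) summed to at most 2.03 FPKM in a library, with *Cd3e* listed at 0 in S52, and the 3 NK cell markers (1 detected) summed to 2.87 and 2.85 FPKM and were all listed at 0 in S52.

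Markers outside the leukocytes did not all move alike. Alveolar type 2 markers (5 of 5 detected) summed to 3778, 3164 and 755 FPKM, airway markers (5 of 5, *Bpifa1* listed at 0 in S52) to 2780, 2316 and 401 FPKM, and platelet markers (4 of 4) to 1692, 1345 and 37.96 FPKM. Fibroblast markers (4 of 4) summed to 73.1, 56.0 and 41.9 FPKM and mural markers (5 of 5) to 108, 57.3 and 108 FPKM. How much of the TLR and *Cd14* values came from these cell types was not tested.

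The levels in S52, as deposited, were set against those in each other library, for the members and for the marker lists. FPKM totals were 1.154e+06 (S38), 1.604e+06 (S44) and 1.419e+06 (S52), so percents and orders between libraries depend on the scaling. In S52, *Tlr3* was at 100.1% of its level in S38, *Tlr2* at 65.8%, *Tlr4* at 44.7% and *Cd14* at 41.5%. Against S44 the values were 85.7%, 60.8%, 59.5% and 42.9%. Over all detected genes the medians were 93.7% and 95.2%. The sums of the immune cell lists covered a wide range, and only the dendritic cell sum was above these medians. The monocyte sum in S52 was 13.0% of S38 and 15.2% of S44. The neutrophil sum was at 14.6% and 11.2%, and the NK cell sum at 0% of both. The pan-leukocyte sum in S52 was 5.41% of S38 and 6.53% of S44. The B cell sum was at 32.4% and 45.9% and the T cell sum at 51.99% and 34.6%. The dendritic cell sum was at 124% and 96.7%, and nearly all of it was *Zbtb46* (20.2, 26.6 and 26.2 FPKM). The other dendritic cell markers were below 1 FPKM in every library. The macrophage sum was at 27.7% and 34.1%, and most of that difference was *Chil3*. Without *Chil3*, left out after its values were seen, the other 8 macrophage markers summed to 24.1, 38.8 and 18.9 FPKM. S52 was then at 78.1% of S38 and 48.6% of S44, but most of this remainder was *Cd68* (17.0, 27.4 and 16.7 FPKM). *Adgre1*, *C1qa*, *C1qb*, *Marco* and *Siglecf* were in S52 at 0% to 21.6% of S38 or S44. *Csf1r* and *Mrc1* were at 70.1% to 104%. Single markers also went the other way, among them the neutrophil receptor genes *Csf3r* and *Cxcr2*, at 182% and 154% of S38. Both were low, with *Csf3r* at 0.302, 0.291 and 0.549 FPKM and *Cxcr2* at 1.42, 1.51 and 2.19 FPKM. The other neutrophil markers with a row fell in S52. *S100a8* was at 1.85%, *S100a9* at 12.6% and *Retnlg* at 2.49% of S38, and *Mmp9* was listed at 0. The endothelial sum was at 97.4% and 88.9%, but its genes differed. *Kdr*, a VEGF receptor gene, was at 62.3% and 65.7% and *Cldn5*, a tight junction gene, at 69.2% and 59.4%, close to *Tlr2*, while *Emcn* and *Erg* were at 171% and 143% of S38. In S52 *Fcer1g*, the FcR gamma chain gene, was at 0.118 FPKM and *Ptprc*, the CD45 gene, at 0.434 FPKM, whereas *Laptm5* was at 3.74 FPKM and the macrophage marker *Cd68* at 16.7 FPKM.

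**Figure D3:**
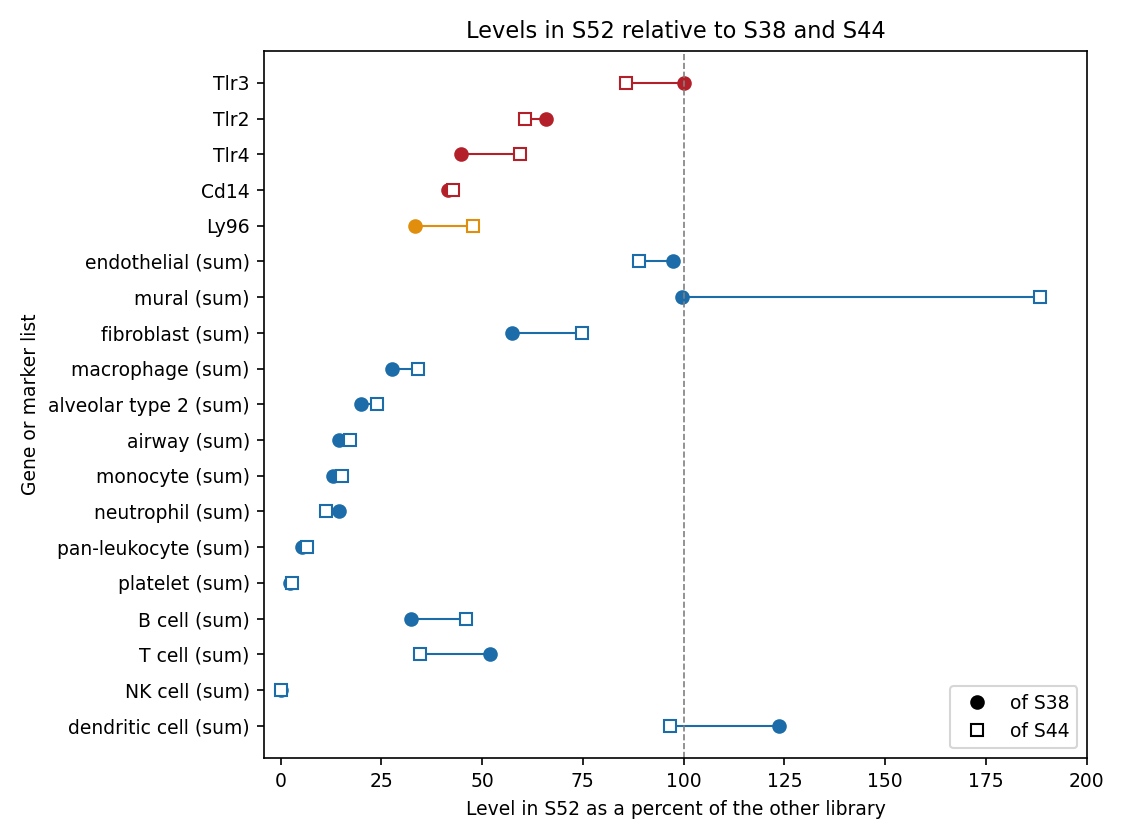
Level in S52 as a percent of that in S38 (filled circles) and in S44 (open squares), for single genes (red, and orange for *Ly96*) and for sums of marker lists (blue), with 100% as the dashed line. *Tlr3* (100.1% and 85.7%) lies near the endothelial sum (97.4% and 88.9%) and the medians over all detected genes (93.7% and 95.2%, not drawn). The B cell (32.4% and 45.9%) and T cell sums (51.99% and 34.6%, with 0 of 4 markers detected) overlap *Cd14* (41.5% and 42.9%). Sums below *Cd14* include the pan-leukocyte (5.41% and 6.53%), monocyte (13.0% and 15.2%), neutrophil (14.6% and 11.2%) and platelet sums (2.24% and 2.82%). The alveolar type 2 (20.0% and 23.9%), airway (14.4% and 17.3%) and NK cell sums (0% of both) are also below it. Sums above it include the fibroblast (57.3% and 74.8%) and mural sums (99.5% and 188%). The dendritic cell sum (124% and 96.7%), nearly all *Zbtb46*, is also above it. The macrophage sum is at 27.7% and 34.1%, or 78.1% and 48.6% without *Chil3* (not drawn), a remainder that is mostly *Cd68*. The cell source of these values was not tested.

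The rest of the pathway was described by 66 further genes in 8 lists, all with a row in the table. Of these, 57 (86.4%) had a mean of at least 1 FPKM and 37 at least 10 FPKM, against 48.3% and 25.7% of all genes in the table. The median of their means was 14.2 FPKM, and that of all genes was 0.784 FPKM. Such lists hold many genes that most cells use, and no test was made of whether the share is particular to TLR signalling.

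Among the other mouse receptors 1 of 3 was detected. *Tlr12*, which senses profilin of parasites, was the highest, with 2.97 (S38), 1.88 (S44) and 0.205 FPKM (S52), so its detection rested on S38 and S44. *Tlr13*, a sensor of bacterial ribosomal RNA, was at 0.498 to 0.669 FPKM and *Tlr11* was listed at 0 in every library. Of the 5 co-receptors and accessory genes 4 were detected, with *Cd36* the highest and *Cd180*, a receptor homologue of B cells, the lowest at 0.103 FPKM.

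The genes listed under folding and trafficking were all detected, 6 of 6. The list includes *Lrrc32* (38.5 FPKM), for which no role in folding or trafficking of the receptors is claimed here. The highest was *Hsp90b1*, the endoplasmic reticulum chaperone gp96, at 300.4 ± 47.1 FPKM (SD, n = 3), and the lowest was *Slc15a4*, an endolysosomal transporter, at 8.05 ± 1.55 FPKM (SD, n = 3). *Unc93b1*, which carries the endosomal receptors out of the endoplasmic reticulum, was at 28.2, 29.2 and 26.5 FPKM. *Tlr3*, its only detected client among the nucleic acid sensors here, was at 0.706 to 0.796 times this level.

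Of the 5 adaptor genes 3 were detected. *Myd88* was by far the highest at 68.0, 80.9 and 86.8 FPKM, or 78.6 ± 9.66 FPKM (SD, n = 3). *Ticam1*, which encodes TRIF, was at 9.27, 8.598 and 5.40 FPKM, and *Myd88* was 7.33, 9.41 and 16.1 times its FPKM in the same order. *Tirap*, which bridges TLR2 and TLR4 to MyD88, was at 4.26 ± 0.402 FPKM (SD, n = 3). *Ticam2*, which encodes TRAM, the bridge between TLR4 and TRIF, was at 0.0254 FPKM in S38 and 0.239 FPKM in S44 and was listed at 0 in S52. *Sarm1*, the lowest adaptor, was listed at 0 in S38 and S44.

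The genes downstream of the adaptors were detected with few exceptions. Of 17 kinases and ubiquitin enzymes 16 were, from *Ripk1* at 44.5 ± 10.3 FPKM (SD, n = 3), and the exception was *Ikbke*, the inducible kinase of the interferon branch, at 0.507 FPKM. All 8 transcription factors were, from *Fos* at 482 ± 30.7 FPKM to *Irf5* at 1.87 ± 1.002 FPKM (SD, n = 3 for each). Of the negative regulators 7 of 8 were, with *Nfkbia*, the NF-kappaB inhibitor, the highest at 368 ± 113 FPKM (SD, n = 3) and *Pik3ap1* the lowest at 0.818 FPKM. Of the 14 genes that TLR signalling is known to induce 12 were, with *Icam1*, a leukocyte adhesion molecule, the highest at 525 ± 62.7 FPKM (SD, n = 3) and *Ifnb1* listed at 0 in every library. No unstimulated and stimulated samples were compared, so no response was measured. The organs were digested with collagenase and dispase before sorting. For glomerular ECs the paper proposes that enrichment of *Fos* and *Jun* may reflect stress during digestion. Whether digestion changed the levels given here was not tested.

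**Figure D4:**
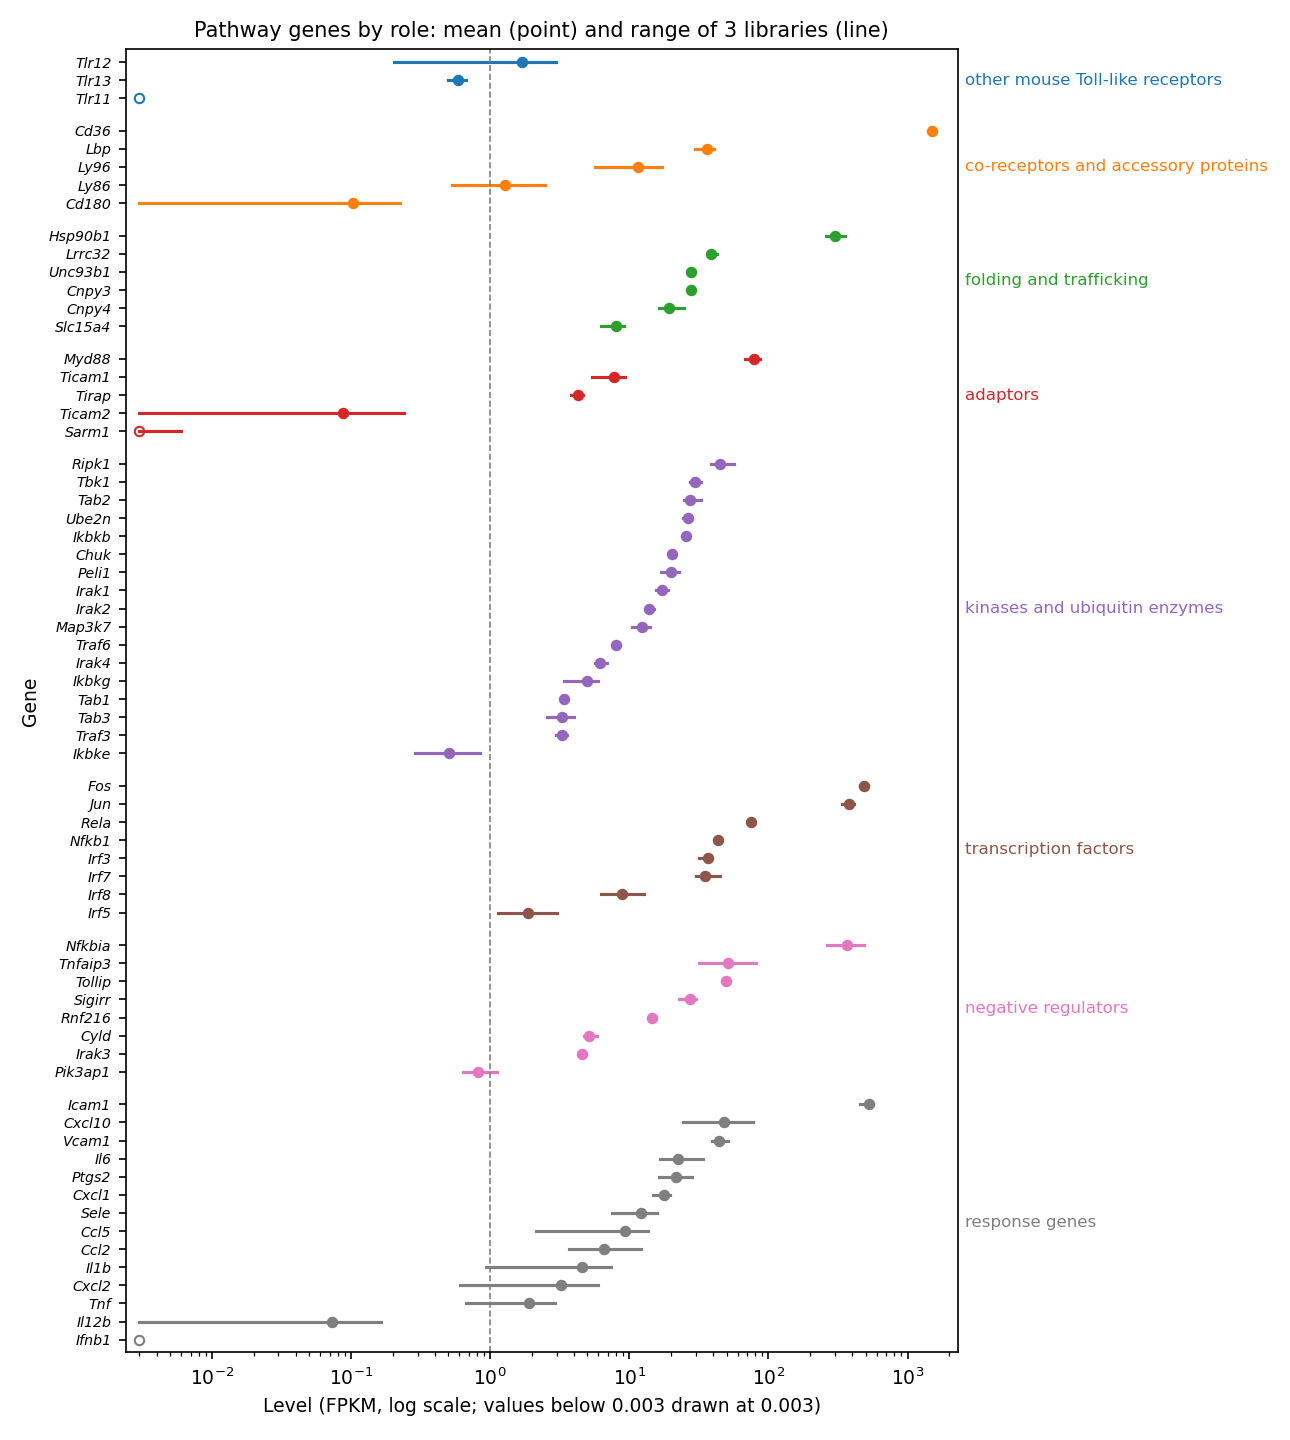
Mean level in FPKM (points, log axis) and range over 3 libraries (lines) of the 66 pathway genes, grouped by list, with 1 FPKM dashed. *Myd88* at 78.6 FPKM stands above the adaptors *Ticam1* at 7.76 FPKM and *Tirap* at 4.26 FPKM, and *Ticam2* and *Sarm1* lie below 0.1 FPKM.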

How the data were processed

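Adult lung ECs of 1 group were measured in 3 libraries by poly-A selected, unstranded RNA-seq with paired reads of 51 bp. The values are FPKM, which the authors deposited as a table of gene symbols, on mm10. The submitters' processing notes name Trimmomatic 0.36, TopHat2 2.1.0 and Cufflinks 2.2.1, whereas the paper's methods name STAR and HTSeq for its counts, and the gene annotation behind the FPKM values is not given in the sources used here. All columns of these 3 libraries were used. Values were read as deposited, without rescaling, and FPKM values are not counts, so no count model was fitted. Detection was a mean of at least 1 FPKM. Differences between genes used log2(FPKM + 1) (pseudocount 1), which understates changes of low genes, with an exact paired permutation test and Benjamini-Hochberg adjustment over 9 pairs.

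Depth was estimated from 7077 genes for which GENCODE M21 holds 1 basic transcript, between 800 and 4000 bp long, by the fragment number and length correction (140, 150 and 240 bp in S38, S44 and S52) that bring low values closest to whole fragments. Within 0.15 of a whole number lay 78.1% of 228, 79.7% of 295 and 73.5% of 151 low values. The step was fitted to these values. Fragments per gene use the longest basic transcript.

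The members and gene lists were chosen with earlier results of these data known. Named genes are the 10 members, the highest and lowest gene of each pathway list, the genes whose product binds or carries a member, and the 3 genes nearest in pattern to the highest member. Other genes, among them *Tlr13*, *Laptm5*, *Cd68* and other single markers, the choice of upstream windows and patterns, and the depth method were added after values were seen. Analyses ran in Python 3.11.15 with numpy 2.4.6 and pandas 2.3.3.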

Additional observations from a re-analysis of the deposited data

How the results depend on the processing

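The number of detected members, 4, also held without each library, at 3 FPKM, with 1 FPKM required in every library and under both rescalings. It was 7 at a mean of 0.1 FPKM and 2 at 10 FPKM. The number of detected pathway genes changed by over 1.5 times only at 10 FPKM, to 37 from 57. The number of members over 2-fold between libraries, 2, ranged from 0 (without S52) to 2 when a library was left out, and it was 1 on the ratio of FPKM + 1. Scaling every library to 1000000 FPKM in total lowered all 4 detected genes. Percents of S52 against the other libraries were not recomputed on this scale. *Tlr3* fell to 15.3, *Cd14* to 7.89, *Tlr2* to 5.62 and *Tlr4* to 5.01 FPKM, so *Tlr3* alone stayed at 10 FPKM or above. In the order of the members, only near-silent pairs changed sign. *Tlr6* minus *Tlr8* became -0.016 on the log2 scale after rescaling to 1000000. *Tlr8* minus *Tlr7* became -0.023 with a pseudocount of 0.1. With a library left out, *Tlr6* minus *Tlr8* ranged from -0.14 to 0.15, *Tlr8* minus *Tlr7* from -0.018 to 0.021 and *Tlr5* minus *Tlr9* from -0.015 to 0.081. The cause was not tested. The other neighbouring differences kept their sign under every alternative run. The order test pairs genes within a library. No paired analysis was possible because there is a single group, so no samples of different groups share a replicate number. Values of a few fragments limit what can be said of *Tlr1* and *Tlr9*.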

Other observations

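The genes that TLR signalling is known to induce did not share a single order over the libraries, and the genes named here were chosen after their values were seen. Of the 12 detected response genes 8 differed by over 2-fold between their highest and lowest library, against 20.1% of all detected genes. *Il1b* was at 7.44 (S38), 5.23 (S44) and 0.930 FPKM (S52), and *Ccl5* was at 13.7, 11.9 and 2.13 FPKM, both lowest in S52, as were all 5 pan-leukocyte markers but not every marker of single leukocyte types. *Cxcl10*, an interferon-induced chemokine, was at 24.5, 40.6 and 78.1 FPKM and *Ccl2* at 4.09, 3.67 and 12.1 FPKM, both highest in S52. Among the negative regulators *Nfkbia* (263, 351 and 488 FPKM) and *Tnfaip3* (31.9, 41.4 and 80.8 FPKM), both NF-kappaB targets, were also highest in S52. *Icam1*, the highest response gene, differed by 1.25-fold between libraries.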
